A study of Caenorhabditis elegans with 14 samples.

Results

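The mature miRNAs of 2 mutant alleles of one gene were compared at one larval stage. *hrpk-1* encodes the *C. elegans* homolog of hnRNPK, an RNA-binding protein with KH domains that co-precipitates with the miRNA Argonaute ALG-1. *hrpk-1(tm5522)* is a deletion in frame, present before the study, that leaves a truncated HRPK-1 lacking part of the first KH domain, all of the second and part of the prion-like domain, and the study describes it as weakly semi-dominant and antimorphic. *hrpk-1(zen17)* is a CRISPR/Cas9 deletion of nearly the whole locus that makes no HRPK-1 and serves as the reference null. Both groups were L4 larvae of the N2 background grown at 20 °C, so the comparison asks how animals with the truncated protein differ from animals with none. There were 2 libraries of *hrpk-1(tm5522)* and 3 of *hrpk-1(zen17)*, out of 14 in the series. Every guide strand (the arm that the count table marks as the mature miRNA) and star strand (its partner in the duplex) with at least 10 counts in at least 2 of these 5 libraries was taken. This gave 229 of the 371 strands in the table, 151 of 214 guide strands and 78 of 157 star strands. Of the 142 strands left out, 54 had 0 counts in all 5 libraries and 16 reached 10 counts in 1 of them.

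A miRNA is cut from a hairpin precursor by Drosha and Dicer as a short duplex. One arm, the guide, is kept by an Argonaute and directs it to complementary sites in mRNAs, while the other, the star strand, is mostly degraded. Levels of the 2 arms together follow transcription and processing of the precursor, and the ratio between them follows the choice and stability of the strand in the Argonaute. In *C. elegans* larvae the lin-4 and let-7 families set the timing of stage-specific cell divisions, and HRPK-1 has been placed with the proteins that assist miRNA activity.

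The libraries of the *hrpk-1(tm5522)* larvae held 11195163 and 13766699 miRNA counts and those of *hrpk-1(zen17)* between 15112868 and 18574237, and abundances are given as ppm of these totals. The larval markers were present in all 5 libraries: lin-4-5p, nearly absent from wild type embryos (between 2.11 and 5.21 ppm), stood between 2129 and 3220 ppm. The mir-35 family of oocytes and embryos, at 776305, 728438 and 513588 ppm in the wild type embryo libraries, summed to between 1444 and 2181 ppm. *hrpk-1(zen17)* replicate 2 stood somewhat apart from the other 2 libraries of its group, with a TMM scaling factor of 1.17 against 0.859 and 0.916. Spearman's correlation over strands was 0.992 between the *hrpk-1(tm5522)* libraries, between 0.987 and 0.995 within *hrpk-1(zen17)* and between 0.956 and 0.965 across the alleles. Small RNA libraries do not measure *hrpk-1* mRNA, so the deleted gene itself could not be checked in these samples. In whole animals, fewer cells of a type and less of a miRNA per cell cannot be told apart. The labels do not say whether replicates were separate cultures, so p-values measure the spread between these libraries.

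Between the alleles, 88 of the 229 strands (38.4%) passed the test, with 41 higher (17.9%) and 47 lower (20.5%) in *hrpk-1(tm5522)*. Of the 88 calls, 58 were at least 2-fold, and the smallest was 0.66 on the log2 scale. The 2 groups did not overlap in TMM-normalized counts for 152 strands (66.4%), all 88 calls among them. The median log2 fold change of all strands was -0.14. Guide strands were called 26 times higher and 38 times lower, with a median of -0.15. For star strands these were 15 and 9, with a median of -0.14. The plot of fold change against count shows calls over the whole range of abundance, from miR-58-3p, the most abundant strand, down to strands with fewer than 10 counts per library. Testing was by edgeR's quasi-likelihood test with a threshold of 0.05 on the Benjamini-Hochberg adjusted p over all 229 strands. Without *hrpk-1(zen17)* replicate 1 the number of higher calls was 23 and without *hrpk-1(zen17)* replicate 3 it was 26, and without *hrpk-1(tm5522)* replicate 2 the lower calls numbered 27. An exact permutation test of a single strand cannot go below p = 0.1 with 2 libraries against 3.

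**Figure D1:**
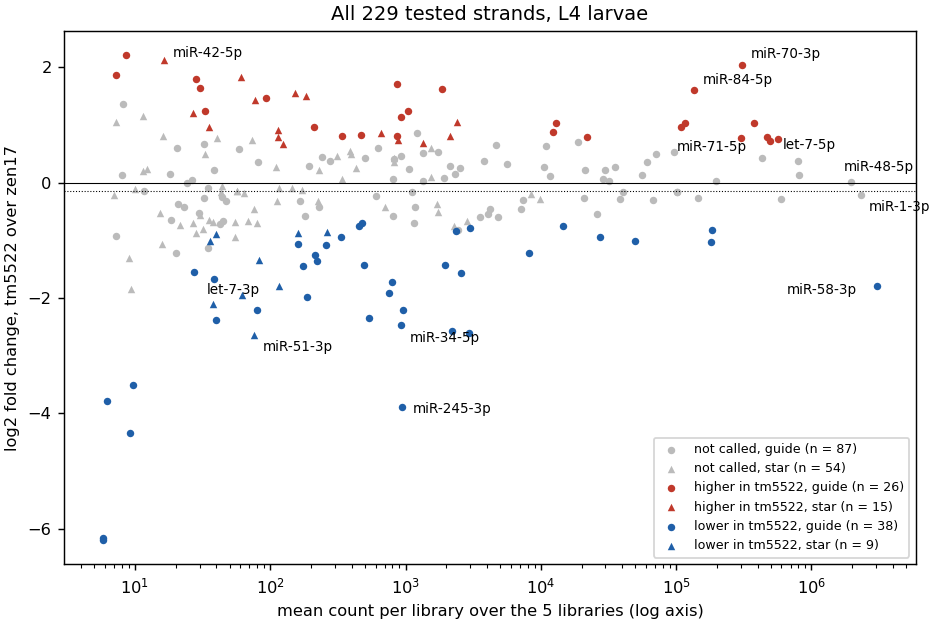
Log2 fold change of *hrpk-1(tm5522)* over *hrpk-1(zen17)* (vertical axis) against the mean count per library (horizontal axis, log scale) for the 229 strands tested, with guide strands as circles, star strands as triangles, calls in red (higher) and blue (lower), and the median of -0.14 dotted. Among strands with over 100 counts, miR-70-3p lies highest at 2.04 and miR-245-3p lowest at -3.89, and miR-58-3p lies at -1.80 at the far right.

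The calls described first are the 8 largest in each direction among those that averaged at least 100 counts over the 5 libraries and whose groups did not overlap. The largest increase among these was that of miR-70-3p. Its hairpin is encoded within a *pmp-5* intron, in the direction of the host (WBcel235 chromosome V, 6665536 to 6665635). It stood at 51958 and 34323 ppm in the *hrpk-1(tm5522)* libraries and at 8304, 11069 and 10120.0 ppm in *hrpk-1(zen17)*, so that the lower of the former was over 3 times the highest of the latter. The log2 fold change was 2.04 (SE 0.20 and adjusted p = 0.000132 in edgeR), or 4.11-fold. The SE is the standard error of the log2 fold change throughout. Wild type L4 libraries held 4799, 1188 and 5048 ppm, below both alleles. The call was lost when the spread was estimated over all 8 L4 libraries (adjusted p = 0.0535, edgeR). The star strand from the same hairpin, miR-70-5p, rose as well, by 1.51 (SE 0.29 and adjusted p = 0.00328 in edgeR), from 8.93, 5.95 and 6.78 ppm in *hrpk-1(zen17)* to 20.8 and 24.0 ppm. That call was lost in fits over the 8 L4 and all 14 libraries (adjusted p of 0.112 and 0.0541, edgeR). The ratio of the 2 arms did not pass its own test, at 0.47 (SE 0.41 and adjusted p = 0.372 in limma).

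miR-84-5p, a let-7 family member that acts in the timing of larval seam cell divisions, came next in abundance among the large increases. Its libraries read 15538 and 17942 ppm in *hrpk-1(tm5522)* and 4407, 6001 and 5121 ppm in *hrpk-1(zen17)*. Both *hrpk-1(tm5522)* values lay far above the other group, with a log2 fold change of 1.61 (SE 0.18 and adjusted p = 0.00018 in edgeR). Wild type L4 larvae, at 3946, 4898 and 3084 ppm, overlapped *hrpk-1(zen17)*. The gene lies between protein-coding genes on chromosome X (16022404 to 16022478), and the increase was called in every alternative setting tried.

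miR-1820-5p (chromosome IV, 7767461 to 7767567, between protein-coding genes) was at 112 and 108 ppm in *hrpk-1(tm5522)* against 25.1, 52.1 and 21.7 ppm in *hrpk-1(zen17)*. *hrpk-1(zen17)* replicate 2 was the highest of its group and still well below *hrpk-1(tm5522)*, and the log2 fold change was 1.70 (SE 0.28 and adjusted p = 0.00165 in edgeR). miR-229-5p, a member of the mir-64 family encoded in an intron of *gcn-1* (chromosome III, 2172452 to 2172566), went from 67.5, 79.4 and 66.8 ppm to 195 and 270.4 ppm, a log2 fold change of 1.62 (SE 0.24 and adjusted p = 0.000948 in edgeR). Its 3 *hrpk-1(zen17)* libraries lay close together, within the wild type L4 range of 45.5 to 88.6 ppm. The star strand miR-236-5p, from the miR-236 hairpin on chromosome II (7030180 to 7030277), rose by 1.54 (SE 0.25 and adjusted p = 0.00165 in edgeR), with 20.8 and 16.6 ppm against 4.57, 9.13 and 4.79 ppm.

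The last of these 8 increases were those of miR-1817-59, as the table writes the name, and of miR-4816-3p. miR-4816-3p, encoded in an intron of T09B4.2 on chromosome I (6185080 to 6185144), was at 94.1 and 108 ppm against 37.7, 57.1 and 36.6 ppm, with a log2 fold change of 1.14 (SE 0.22 and adjusted p = 0.00311 in edgeR). Wild type L4 replicate 2 reached 100.3 ppm, as high as *hrpk-1(tm5522)*, while the other 2 wild type libraries did not. miR-1817-59 read 86.3 and 144 ppm against 43.3, 62.6 and 34.7 ppm, and its call (1.24 (SE 0.28 and adjusted p = 0.00693 in edgeR)) was lost without *hrpk-1(zen17)* replicate 1 (adjusted p = 0.063) and over 8 or 14 libraries (adjusted p of 0.203 and 0.0911).

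miR-245-3p showed the largest decrease among calls that averaged at least 100 counts. It was at 4.91 and 8.06 ppm in *hrpk-1(tm5522)* and at 74.7, 117 and 86.5 ppm in *hrpk-1(zen17)*, and its wild type L4 libraries (79.0, 211 and 47.7 ppm) spanned the *hrpk-1(zen17)* range. No *hrpk-1(zen17)* or wild type L4 library came near the *hrpk-1(tm5522)* values, and the log2 fold change was -3.89 (SE 0.31 and adjusted p = 4.34e-05 in edgeR), or 14.9-fold lower. The raw counts behind this were 55 and 111 in *hrpk-1(tm5522)* and 1129, 1764 and 1607 in *hrpk-1(zen17)*. mir-245 lies between protein-coding genes on chromosome I (7887371 to 7887467), the chromosome that also carries *hrpk-1* (6317697 to 6320364).

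miR-76-3p, from chromosome III (3142045 to 3142141), fell by 2.61 (SE 0.28 and adjusted p = 0.00018 in edgeR) on the log2 scale, from 237, 405 and 211 ppm in *hrpk-1(zen17)* to 55.7 and 41.5 ppm in *hrpk-1(tm5522)*. miR-49-3p, related to the miR-29 family of vertebrates, had 37.2 and 36.0 ppm in *hrpk-1(tm5522)* and 167, 291 and 168 ppm in *hrpk-1(zen17)*, a log2 fold change of -2.57 (SE 0.26 and adjusted p = 0.000132 in edgeR). In both miRNAs *hrpk-1(zen17)* replicate 2 was the highest of its group and the *hrpk-1(tm5522)* libraries were lower than every wild type L4 library. miR-34-5p, a conserved miRNA of the stress response, was at 15.5 and 16.8 ppm against 59.3, 143 and 62.5 ppm. The *hrpk-1(zen17)* libraries differed by over 2-fold among themselves, again with replicate 2 on top, and the log2 fold change was -2.48 (SE 0.33 and adjusted p = 0.000465 in edgeR).

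miR-247-3p, of the mir-44 family, fell from 43.8, 42.5 and 59.3 ppm to 9.29 and 11.4 ppm, with a log2 fold change of -2.34 (SE 0.31 and adjusted p = 0.000465 in edgeR). miR-357-3p, from a hairpin that lies opposite an intron of *symk-1* on chromosome V (8580542 to 8580651), fell from 63.1, 129 and 73.8 ppm to 21.8 and 17.8 ppm, with a log2 fold change of -2.21 (SE 0.27 and adjusted p = 0.0004 in edgeR). The neighbouring guide miR-358-3p fell less, by 0.95 (adjusted p = 0.00998, edgeR). In *hrpk-1(tm5522)* miR-239a-5p, a miRNA tied to heat stress and lifespan, stood at 3.84 and 5.01 ppm against 14.4, 25.2 and 11.7 ppm. No library of one allele reached the other, and the log2 fold change was -1.99 (SE 0.30 and adjusted p = 0.00116 in edgeR). These 7 decreases and that of miR-124-3p, described with the neuronal miRNAs, make up the 8 largest at this count minimum, and all 8 were called in every alternative setting tried.

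**Figure D2:**
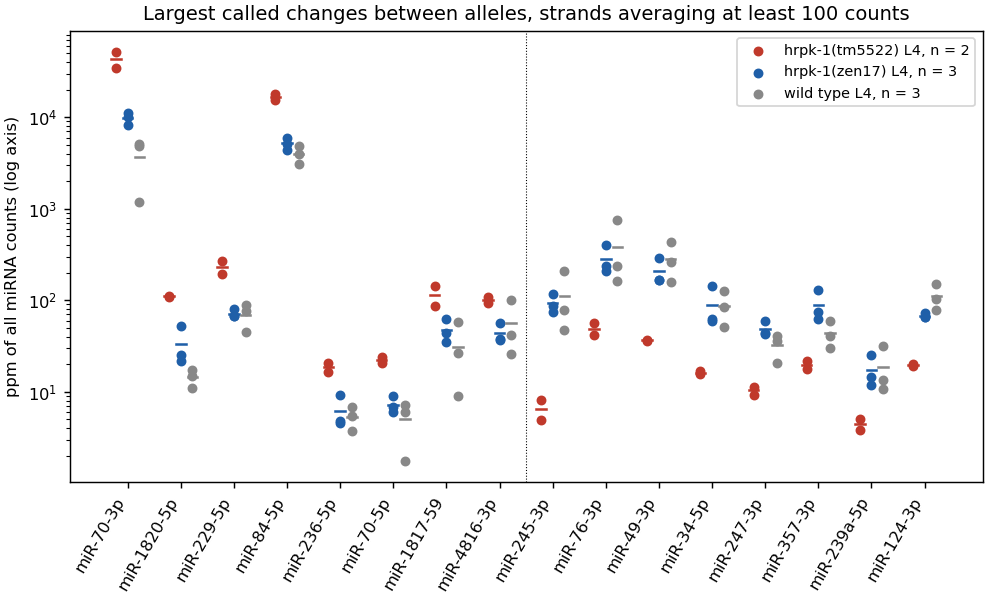
Abundance in ppm (vertical axis, log scale) of the 8 strands with the largest increases (left of the dotted line) and the 8 with the largest decreases among calls that averaged at least 100 counts, with 1 point per library and a line at each group mean, for *hrpk-1(tm5522)* (n = 2), *hrpk-1(zen17)* (n = 3) and wild type L4 larvae (n = 3). Absence of overlap between red and blue points was a condition of the choice, met by 66.4% of all strands, and the grey wild type points of miR-4816-3p reach the *hrpk-1(tm5522)* level in 1 library.

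A few calls rested on very low counts. Of the 229 strands, 201 had at least 10 counts in all 5 libraries and 77 of the calls were among these. Another 8 had passed the count minimum through *hrpk-1(zen17)* libraries alone and 3 through *hrpk-1(tm5522)* libraries alone, so that a call among them followed in part from the selection. The guide miR-354 had 0 counts in both *hrpk-1(tm5522)* libraries and 10, 12 and 7 in *hrpk-1(zen17)* (adjusted p = 0.0112, edgeR). miR-251-5p had 0 and 0 counts against 5, 14 and 10 (adjusted p = 0.0119, edgeR). Both had passed the minimum through *hrpk-1(zen17)* libraries alone. The pooled *hrpk-1(zen17)* level of each, 0.594 ppm, was 4.94 times the floor of 3 counts over the *hrpk-1(tm5522)* group (0.120 ppm). That figure allows neither for the selection nor for counting error in the 29 *hrpk-1(zen17)* counts of each strand. miR-5549-3p, miR-392-3p and miR-792-3p, with at most 2 counts in a *hrpk-1(tm5522)* library, were also called lower. miR-4806-3p was called higher with 14 and 17 counts against 4, 2 and 6. These strands were chosen after their values were seen.

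Of 4 listed members of the let-7 family, which represses *lin-41* and *hbl-1* as larvae mature, 3 were higher in *hrpk-1(tm5522)*. The median log2 fold change of the 4 was 0.88 beside -0.14 for all strands, of which 17.9% were higher. Mature sequences were not at hand, so the list may leave out relatives of these 4. Outside the list, miR-794-5p was at -0.43 (adjusted p = 0.139) and miR-795-5p at 0.06 (adjusted p = 0.843, edgeR), neither of them called. let-7-5p, whose loss blocks the passage from larva to adult, was at 47805 and 45644 ppm in *hrpk-1(tm5522)* and 23176, 36361 and 21991 ppm in *hrpk-1(zen17)*. Although the groups did not overlap, *hrpk-1(zen17)* replicate 2 came closer than the other 2, and the log2 fold change was 0.71 (SE 0.17 and adjusted p = 0.00799 in edgeR). This call was lost without *hrpk-1(zen17)* replicate 1 (adjusted p = 0.0718) and without *hrpk-1(zen17)* replicate 3 (adjusted p = 0.0545). miR-241-5p had 14207 and 10611 ppm against 4719, 7972 and 4649.8 ppm, a log2 fold change of 1.04 (SE 0.20 and adjusted p = 0.0034 in edgeR). Of the 3 let-7 family calls, only that of miR-84-5p held in the fits over 8 and 14 libraries, where the adjusted p was 0.305 and 0.288 for let-7-5p and 0.108 and 0.0552 for miR-241-5p. Under scaling by total counts let-7-5p had an adjusted p of 0.0509. The wild type L4 libraries of miR-241-5p, at 10213, 4893 and 6707 ppm, ran from its *hrpk-1(zen17)* range to just below *hrpk-1(tm5522)*. The fourth listed member, miR-48-5p, was also by far the most abundant of them and did not differ detectably. It was at 154714 and 129389.7 ppm against 129286, 138721 and 124462 ppm (log2 fold change 0.01 (SE 0.16 and adjusted p = 0.935 in edgeR)). Summed over the 4 listed members, the libraries held 232263 and 203587 ppm in *hrpk-1(tm5522)* and 161588, 189056 and 156223 ppm in *hrpk-1(zen17)*. The lin-4 family, which acts earlier in the same timing pathway, had 0 of 2 members called, beside 38.4% of all strands. lin-4-5p was at -0.28 (adjusted p = 0.292) and miR-237-5p at 0.22 (adjusted p = 0.499, edgeR).

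Within the mir-58 family, the worm relatives of *Drosophila* bantam, 1 of 4 listed members was called (median 0.26), beside 38.4% of all strands. miR-58-3p took 296199, 191867 and 308373 ppm of the *hrpk-1(zen17)* libraries and 82233 and 85997 ppm of the *hrpk-1(tm5522)* libraries. Here *hrpk-1(zen17)* replicate 2 was the lowest of its group and still over 2 times the *hrpk-1(tm5522)* values. The log2 fold change was -1.80 (SE 0.29 and adjusted p = 0.00151 in edgeR), and the call was lost when the spread came from all 8 L4 libraries (adjusted p = 0.0802) or all 14 (adjusted p = 0.0541). miR-80-3p, miR-81-3p and miR-82-3p had log2 fold changes of 0.43, 0.14 and 0.38 with adjusted p of 0.112, 0.476 and 0.0599 (edgeR). miR-80-3p passed the test without *hrpk-1(tm5522)* replicate 1 (adjusted p = 0.0339), and miR-82-3p without *hrpk-1(zen17)* replicate 2 (adjusted p = 0.0177).

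miR-58-3p alone made up between 19.2% and 30.8% of the *hrpk-1(zen17)* counts and 8.22% and 8.60% of the *hrpk-1(tm5522)* counts, and ppm are shares of a fixed whole. Scaling by total counts in place of TMM factors gave 31 higher and 38 lower strands. The next most abundant strands included called and uncalled ones, and miR-86-5p, a less abundant guide that the study names, was not called at -0.46 (adjusted p = 0.142, edgeR), with 205 and 269 ppm against 272, 347 and 302 ppm. miR-1-3p, the muscle miRNA, was at 126725 and 177312 ppm in *hrpk-1(tm5522)* and 199855, 119728 and 161723 ppm in *hrpk-1(zen17)*. These ranges overlapped, and the log2 fold change was -0.22 (SE 0.30 and adjusted p = 0.565 in edgeR). miR-228-5p, known from glia, had 63996 and 46058 ppm against 26199.6, 38741 and 27605 ppm, a log2 fold change of 0.75 (SE 0.17 and adjusted p = 0.00693 in edgeR). That call was lost without *hrpk-1(zen17)* replicate 1 (adjusted p = 0.0643) or *hrpk-1(tm5522)* replicate 1 (adjusted p = 0.0854), and over 8 or 14 libraries (adjusted p of 0.0641 and 0.144).

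All 4 members of the list of neuronal miRNAs fell, where 20.5% of all strands did, with a median log2 fold change of -1.58. miR-124-3p, expressed in sensory neurons, was at 19.9 and 19.1 ppm in *hrpk-1(tm5522)* and 72.0, 66.2 and 65.6 ppm in *hrpk-1(zen17)*. The replicates of each allele lay within a few ppm of each other, and the log2 fold change was -1.91 (SE 0.26 and adjusted p = 0.000504 in edgeR). miR-791-3p, which acts in neurons that sense carbon dioxide, had 1.61 and 1.74 ppm against 7.68, 7.81 and 6.46 ppm, with a log2 fold change of -2.21 (SE 0.30 and adjusted p = 0.000504 in edgeR). lsy-6-3p, which sets the left-right difference of the ASE taste neurons through *cog-1*, had 7.86 and 8.28 ppm against 18.0, 15.9 and 19.1 ppm. Again no library of one allele reached the other, with a log2 fold change of -1.25 (SE 0.27 and adjusted p = 0.00526 in edgeR). The decrease of miR-790-5p was smaller, at -0.85 (SE 0.24 and adjusted p = 0.0172 in edgeR), and its call was lost without *hrpk-1(zen17)* replicate 3 (adjusted p = 0.0545), *hrpk-1(tm5522)* replicate 1 (adjusted p = 0.084) or *hrpk-1(tm5522)* replicate 2 (adjusted p = 0.173). It was also lost under total counts (adjusted p = 0.0832) and over 8 or 14 libraries (adjusted p of 0.165 and 0.155), and that of miR-791-3p over 14 (adjusted p = 0.0657). Summed, the 4 made up 139 and 135 ppm in *hrpk-1(tm5522)* and 232, 319 and 282 ppm in *hrpk-1(zen17)*, and 273, 739 and 206 ppm in wild type L4 larvae. In both alleles most of the sum was miR-790-5p, the member whose call was lost in several settings.

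Of the 6 miRNAs in the list for stress resistance and lifespan, 1 was higher (miR-71-5p) and 2 were lower (miR-34-5p and miR-239a-5p). Of all strands 17.9% were higher and 20.5% lower, and the median of the list was 0.01. miR-71-5p, which promotes longevity, had 47336 and 44177 ppm in *hrpk-1(tm5522)* and 19994, 38295 and 18574 ppm in *hrpk-1(zen17)*. *hrpk-1(zen17)* replicate 2 lay nearer to *hrpk-1(tm5522)* than to its own group, and the call (0.79 (SE 0.21 and adjusted p = 0.0134 in edgeR)) was lost without *hrpk-1(zen17)* replicate 1 (adjusted p = 0.137), under total counts (adjusted p = 0.0702) and over 8 or 14 libraries (adjusted p of 0.066 and 0.0564). miR-246-3p showed the same library at its widest, with 539.6, 2226 and 530.1 ppm in *hrpk-1(zen17)* against 2018 and 1494 ppm. Its log2 fold change of 0.70 did not pass (adjusted p = 0.237, edgeR), but without *hrpk-1(zen17)* replicate 2 it was 1.56 (adjusted p = 0.00121). miR-238-3p was at 0.53 (adjusted p = 0.0647) and miR-239b-5p at -0.52 (adjusted p = 0.259, edgeR). In edgeR miR-238-3p passed under RLE size factors (adjusted p = 0.0374) and without *hrpk-1(zen17)* replicate 2 (adjusted p = 0.00903). It also passed in DESeq2 (adjusted p = 0.0322), but stayed uncalled in 9 of 13 alternatives.

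The plot of family members shows the remaining families. All 3 listed members of the mir-2 family fell (median -1.43), where 20.5% of all strands were called lower. This list, too, may leave out relatives, and miR-797-5p, outside it, was at 0.37 and not called. Of the 3 listed, miR-43-3p was the lowest at -2.38 (SE 0.43 and adjusted p = 0.00255 in edgeR), on 0.536 and 0.944 ppm against 4.37, 3.51 and 3.18 ppm. miR-250-3p fell from 168, 193 and 146 ppm to 76.4 and 57.8 ppm, a log2 fold change of -1.43 (SE 0.24 and adjusted p = 0.00202 in edgeR). miR-2-3p, at -0.79 (SE 0.25 and adjusted p = 0.0337 in edgeR), lost its call without any 1 of *hrpk-1(zen17)* replicates 1 and 3 and *hrpk-1(tm5522)* replicates 1 and 2, with adjusted p of 0.121, 0.0829, 0.135 and 0.207. It was also lost under total counts (adjusted p = 0.0873), without a filter (adjusted p = 0.0664) and over 8 or 14 libraries (adjusted p of 0.077 and 0.144).

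In the mir-44 family miR-61-3p, which represses *vav-1* in vulval cells, was lower together with miR-247-3p. These were 2 of 4 listed members (median -0.56), where 20.5% of all strands were lower. The level of miR-61-3p was 1162 and 1253 ppm against 1877, 2545 and 2163 ppm, with a log2 fold change of -0.95 (SE 0.20 and adjusted p = 0.00526 in edgeR) and an adjusted p of 0.0567 without *hrpk-1(tm5522)* replicate 2. miR-44-3p and miR-45-3p were both at -0.17 and could not be told from each other, since their counts differed by at most 0.195% in any of the 5 libraries. miR-1829b-3p and miR-1829c-3p likewise shared nearly all counts.

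Of the 3 miRNAs related to vertebrate miR-31 (median -1.02), miR-72-5p fell from 13702, 15105 and 14819 ppm to 6769.7 and 8566 ppm (log2 fold change -1.02 (SE 0.21 and adjusted p = 0.00373 in edgeR), with an adjusted p of 0.0507 over 14 libraries) and miR-74-3p by 1.57 (SE 0.29 and adjusted p = 0.00255 in edgeR). miR-73-3p, whose hairpin adjoins that of miR-74, was at 0.12 (adjusted p = 0.597). Thus 2 of these 3 were lower, where 20.5% of all strands were. Of the 2 miRNAs related to miR-29, miR-49-3p fell, as above, while miR-83-3p, which acts in the migration of gonadal distal tip cells, was at 0.64 (adjusted p = 0.0647, edgeR). miR-83-3p passed without *hrpk-1(tm5522)* replicate 1 (adjusted p = 0.0383). In the mir-51 family, which is needed in embryos, 1 of 6 members was called (median 0.04), beside 38.4% of all strands. miR-55-3p was at 37393 and 40879 ppm against 13749, 20187 and 20407 ppm, with all *hrpk-1(tm5522)* values well above the others (log2 fold change 1.02 (SE 0.19 and adjusted p = 0.00255 in edgeR)). miR-54-3p, at 0.63 (adjusted p = 0.0647), passed without *hrpk-1(tm5522)* replicate 1 (adjusted p = 0.0383), and the other 4 lay between -0.27 and 0.06.

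**Figure D3:**
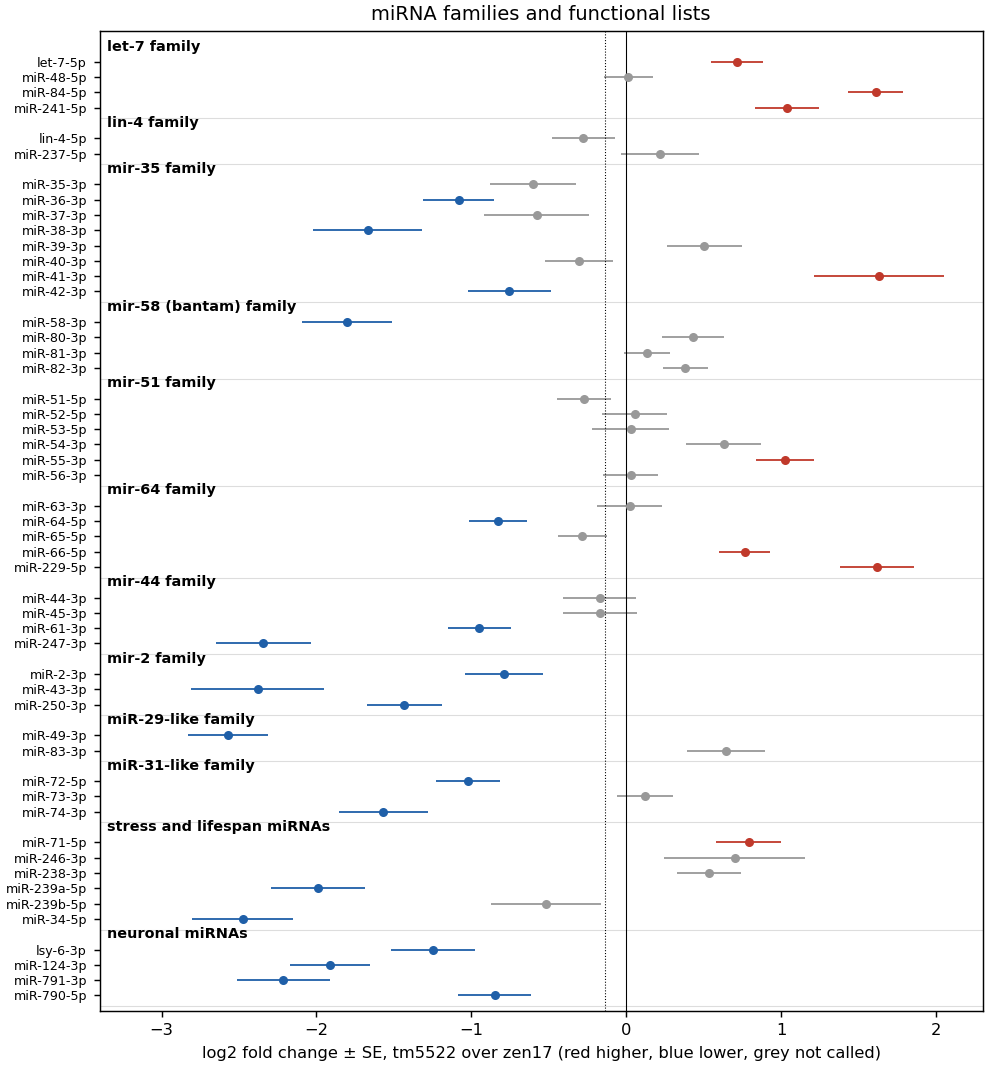
Log2 fold change of *hrpk-1(tm5522)* over *hrpk-1(zen17)* (horizontal axis, points with standard errors from 2 and 3 libraries) for each member of 12 lists, in red where called higher, blue where called lower and grey where not called, with the median of all strands dotted at -0.14. All 4 neuronal members and all 3 listed for the mir-2 family lie to the left. Of the 4 listed for the let-7 family 3 lie to the right, and miR-58-3p lies apart from the rest of its list.

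Of 18 groups of neighbouring genes with at least 2 guide strands tested, 2 held calls in both directions, 3 held at least 2 calls in a single direction, 5 held 1 call and 8 held none. The largest cluster, mir-35 to mir-41 on chromosome II (11537608 to 11538404), holds members of the mir-35 family, essential in embryos and scarce at L4. With miR-42-3p, encoded elsewhere, 1 of the 8 family members was higher and 3 were lower, beside 17.9% and 20.5% of all strands (median -0.59, and -0.045 without *hrpk-1(tm5522)* replicate 2). miR-36-3p fell by 1.08 (SE 0.23 and adjusted p = 0.00501 in edgeR) and miR-38-3p by 1.67 (SE 0.35 and adjusted p = 0.00492 in edgeR). miR-41-3p, at the end of the same cluster, rose by 1.63 (SE 0.42 and adjusted p = 0.012 in edgeR), on 5.27 and 2.62 ppm against 1.52, 1.19 and 0.808 ppm. The calls of miR-36-3p and miR-38-3p were lost without *hrpk-1(tm5522)* replicate 2 (adjusted p = 0.0869 and 0.0766) and that of miR-41-3p without *hrpk-1(tm5522)* replicate 1 (adjusted p = 0.122). Over 8 libraries the calls of miR-36-3p and miR-41-3p were lost (adjusted p of 0.0793 and 0.0828), and over 14 that of miR-36-3p (adjusted p = 0.0924). Without *hrpk-1(tm5522)* replicate 1, miR-35-3p and miR-37-3p also passed as lower (adjusted p = 0.0383 and 0.0107), and without *hrpk-1(tm5522)* replicate 2, miR-39-3p passed as higher (adjusted p = 0.0432). The 2 *hrpk-1(tm5522)* libraries differed over 2-fold for miR-37-3p, at 62.4 and 25.1 ppm.

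In the mir-42, mir-43 and mir-44 cluster (chromosome II, 11889811 to 11890118) miR-43-3p fell by 2.38 while miR-44-3p was at -0.17. The counts of miR-44-3p could not be told from those of miR-45-3p, whose gene lies outside the cluster. The value of -0.17 therefore cannot be assigned to the hairpin next to mir-43. miR-42-3p, of the mir-35 family, was at 688 and 767 ppm against 1244, 981 and 1151 ppm, with a log2 fold change of -0.75 (SE 0.27 and adjusted p = 0.0478 in edgeR). It lay at the threshold, and the call was lost under RLE size factors (adjusted p = 0.0642), under total counts (adjusted p = 0.114) and without any 1 of *hrpk-1(zen17)* replicates 1 and 3 and *hrpk-1(tm5522)* replicates 1 and 2 (adjusted p of 0.164, 0.0625, 0.186 and 0.182). It was also lost without a filter (adjusted p = 0.0894) and over 8 or 14 libraries (adjusted p of 0.227 and 0.24).

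The mir-229 to mir-66 cluster in an intron of *gcn-1* (chromosome III, 2172452 to 2173206) held calls in both directions. With miR-63-3p, at 0.02, the 5 members of the mir-64 family had a median of 0.02. miR-229-5p was 1.62 higher and miR-66-5p rose by 0.77 (SE 0.17 and adjusted p = 0.00526 in edgeR), whereas miR-64-5p fell by 0.83 (SE 0.19 and adjusted p = 0.00659 in edgeR) and miR-65-5p was at -0.28 (adjusted p = 0.167). The libraries read 31683 and 26869.5 ppm for miR-66-5p in *hrpk-1(tm5522)* and 13893, 20916 and 14225 ppm in *hrpk-1(zen17)*, with no overlap, and the call was lost over 8 or 14 libraries (adjusted p of 0.0793 and 0.0672). For miR-64-5p they read 8905 and 8256 ppm and 12026, 19564 and 12057 ppm, and the call was lost without *hrpk-1(tm5522)* replicate 2 (adjusted p = 0.11), under total counts (adjusted p = 0.0755) and over 8 or 14 libraries (adjusted p of 0.203 and 0.288). The differences between neighbours were not themselves tested. In the pair of mir-250 and mir-61 (chromosome V, 11769917 to 11770156) both guides fell.

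**Figure D4:**
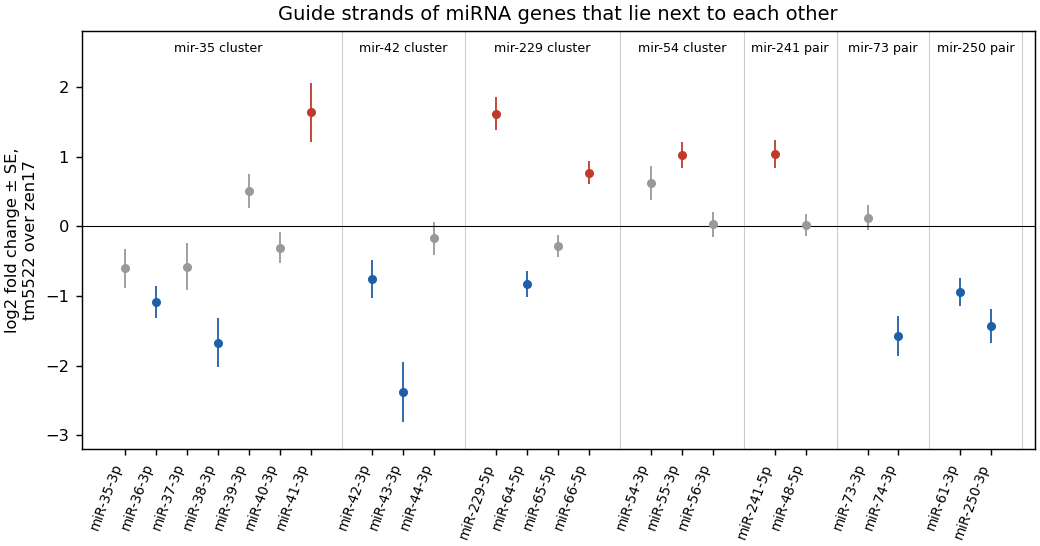
Log2 fold change of *hrpk-1(tm5522)* over *hrpk-1(zen17)* (vertical axis, points with standard errors from 2 and 3 libraries) for guide strands of genes on the same strand within 2 kb of each other, in genomic order in each cluster, with calls in red (higher) and blue (lower). Only some of the 18 groups are drawn, each with at least 1 call, and the 8 groups without a call are not shown. The mir-35 cluster runs from -1.67 for miR-38-3p to 1.63 for miR-41-3p and the mir-229 cluster from -0.83 to 1.62. In the mir-42 cluster miR-44-3p shares nearly all counts with miR-45-3p, from a gene outside the cluster.

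A gene position was found for 219 of the 229 strands, and calls came from every chromosome. Of 23 strands with genes on chromosome I, which carries *hrpk-1*, 2 were higher and 7 lower (median -0.66). On chromosome II these were 11 and 6 of 39 (median -0.10), on III 5 and 7 of 28 (-0.30), on IV 4 and 5 of 33 (0.21), on V 3 and 7 of 23 (-0.16) and on X 14 and 13 of 73 (0.09). Of the 54 strands from introns of a host gene on the same strand, 13 were higher and 8 lower (median -0.08), against 20 and 29 of 139 strands from between protein-coding genes (median -0.15). Of the 23 strands from genes that lie opposite a protein-coding gene, 6 were higher and 7 lower (median -0.31), and of 3 from exons of a host on the same strand 1 was lower. In wild type, the mean TMM-normalized count of 71 tested strands was at least 4 times higher in L4 larvae than in embryos, with no overlap, and among these 16 were higher and 11 lower in *hrpk-1(tm5522)* (median 0.06). Of 35 strands whose mean was at least 4 times higher in embryos, 5 were higher and 7 lower (median -0.22). These shares stand beside 17.9% higher and 20.5% lower for all strands.

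The ratio of guide to star strand within a library does not depend on the scaling of libraries. It was compared for the 72 miRNAs with a mean of at least 10 counts of each arm, as log2 ratios with a pseudocount of 0.5 in limma. For 35 miRNAs (48.6%) the ratio differed, with 16 higher (22.2%) and 19 lower (26.4%) in *hrpk-1(tm5522)*. In 19 of the 35 the guide was called and the star was not, in 9 the star was called and the guide was not, in 5 both were called and in 2 neither was. Without *hrpk-1(tm5522)* replicate 1 the higher ratios numbered 10.

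In 3 miRNAs the arms were called in opposite directions. let-7-5p rose while its star let-7-3p fell by 1.80 (SE 0.32 and adjusted p = 0.00253 in edgeR), with 2.95 and 3.41 ppm of the star in *hrpk-1(tm5522)* and 11.5, 8.67 and 10.5 ppm in *hrpk-1(zen17)*. The log2 ratio of let-7 was 13.96 and 13.69 against 10.97, 12.03 and 11.03, a difference of 2.48 (SE 0.40 and adjusted p = 0.00294 in limma). Every *hrpk-1(tm5522)* library thus had more guide per star than any *hrpk-1(zen17)* library. miR-84 behaved alike, with log2 ratios of 10.33 and 10.46 against 7.69, 7.97 and 8.16 and a difference of 2.45 (SE 0.32 and adjusted p = 0.000858 in limma). The decrease of its star miR-84-3p (-0.85 (SE 0.23 and adjusted p = 0.0148 in edgeR)) lost its call without *hrpk-1(zen17)* replicate 1 (adjusted p = 0.0514), *hrpk-1(tm5522)* replicate 1 (adjusted p = 0.107) or *hrpk-1(tm5522)* replicate 2 (adjusted p = 0.111), while the ratio itself kept its call in each. The star was also lost over 8 or 14 libraries (adjusted p of 0.0793 and 0.101).

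miR-42 went the other way, with a guide that was lower and a star, miR-42-5p, that rose by 2.12 (SE 0.42 and adjusted p = 0.00349 in edgeR). The star was at 2.32 and 2.32 ppm in *hrpk-1(tm5522)* against 0.529, 0.397 and 0.538 ppm. Its log2 ratio of guide to star was 8.18 and 8.34 in the former and 11.11, 11.16 and 10.99 in the latter, so the replicates of each allele nearly coincided and the difference was -2.82 (SE 0.30 and adjusted p = 0.000547 in limma). The raw counts of the star were 26 and 32 against 8, 6 and 10, so the strand met the count minimum, and the pair the mean of 10 counts, only through the *hrpk-1(tm5522)* libraries, where it was high. The calls of the star and of the ratio therefore followed in part from the selection. The alternatives that kept the pair applied the same minimum mean of 10 counts, so the ratio's passing in them does not bear on the selection.

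The other large increases of the ratio were those of miR-51 and miR-229. For miR-51 the guide was at -0.27 (adjusted p = 0.235) and the star miR-51-3p fell from 5.56, 11.6 and 4.68 ppm to 0.804 and 1.53 ppm (-2.64 (SE 0.42 and adjusted p = 0.00151 in edgeR)), which gave a ratio difference of 2.38 (SE 0.42 and adjusted p = 0.00305 in limma). In miR-229 the strand marked as star, miR-229-3p, outnumbered the guide in all 5 libraries, with log2 ratios of -1.54 and -1.01 against -3.18, -3.10 and -2.90. The guide rose and the star was at -0.20 (adjusted p = 0.485), a ratio difference of 1.78 (SE 0.32 and adjusted p = 0.00305 in limma).

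The largest decrease of the ratio was that of miR-43, at -3.48 (SE 0.72 and adjusted p = 0.00546 in limma), on a star of under 2 ppm in every library. miR-239a had log2 ratios of -2.60 and -2.55 against -0.24, 0.11 and -0.33, a difference of -2.42 (SE 0.31 and adjusted p = 0.000858 in limma). In *hrpk-1(zen17)* its arms were about level, and in *hrpk-1(tm5522)* the star arm miR-239a-3p, itself at 0.45 (adjusted p = 0.139), was several times the guide. miR-236 differed by -2.08 (SE 0.46 and adjusted p = 0.00598 in limma) through its star strand, the guide miR-236-3p being at -0.55 (adjusted p = 0.153). For miR-58 the ratio was lower by 1.37 (SE 0.49 and adjusted p = 0.044 in limma), a call that was lost without *hrpk-1(zen17)* replicate 1 (adjusted p = 0.202) or replicate 3 (adjusted p = 0.125). In 8 miRNAs both arms were called in the same direction, miR-2, miR-41, miR-55, miR-70, miR-358, miR-791, miR-1829a and miR-1830.

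**Figure D5:**
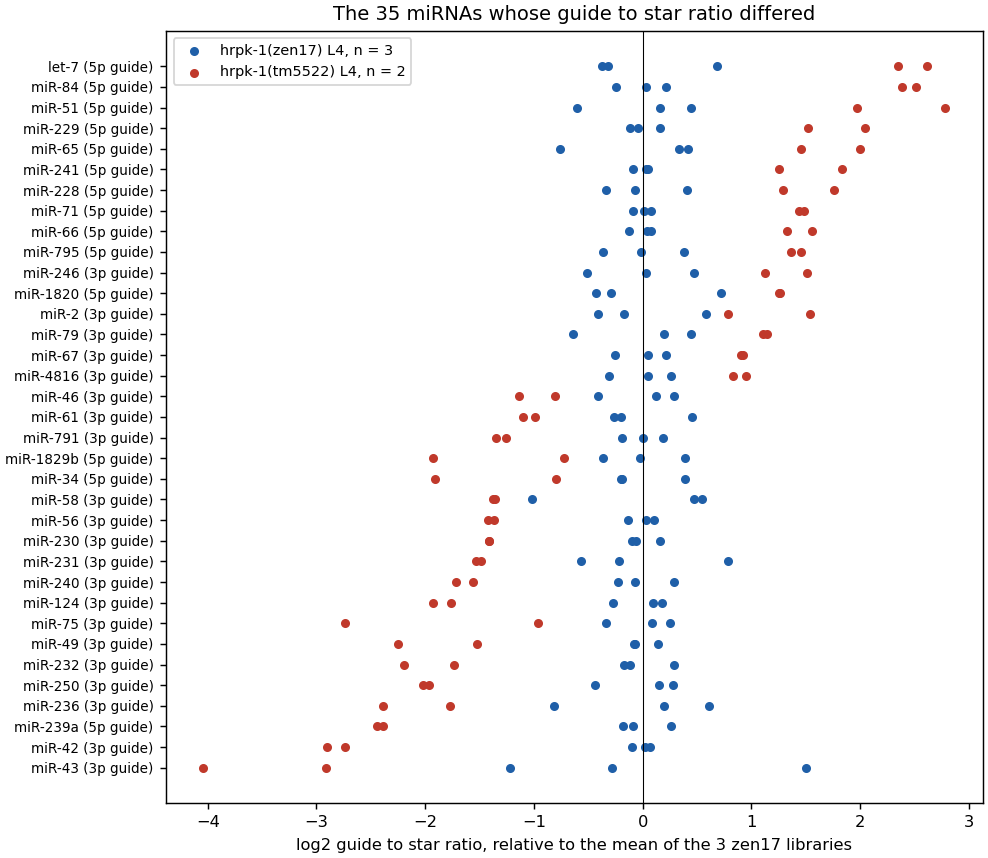
Log2 guide to star ratio in each library (horizontal axis, relative to the mean of the 3 *hrpk-1(zen17)* libraries) for the 35 miRNAs whose ratio differed, with *hrpk-1(tm5522)* in red (n = 2), *hrpk-1(zen17)* in blue (n = 3) and the arm of the guide beside each name. Of the 16 higher ratios at the top 11 belong to guides on the 5p arm, and of the 19 lower ones 16 belong to guides on the 3p arm.

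The same ratios were also written as 5p arm over 3p arm, a form chosen after the data were seen. In that form 27 of the 35 called ratios, or 37.5% of the 72 tested, were higher in *hrpk-1(tm5522)* and 8 were lower. Of the miRNAs with a 5p guide 11 shifted towards the 5p arm and 3 away from it, and of those with a 3p guide 16 and 5 did. Over all 72 miRNAs the shift was smaller: 42 lay above 0 and the median difference was 0.19. The median log2 ratio of 5p to 3p in a library was -1.57 and -1.65 for *hrpk-1(tm5522)*, -2.47, -2.40 and -2.19 for *hrpk-1(zen17)* and -2.02, -3.04 and -2.35 in wild type L4 larvae. As levels of single strands, 3p guides were called higher 11 times and lower 27 times of 90 (median -0.24), and 5p guides 13 and 10 times of 46 (median 0.00). 5p stars were called higher 11 and lower 4 times of 49 (median 0.10) and 3p stars 4 and 5 times of 29 (median -0.31), where 17.9% of all strands were higher and 20.5% lower. The share of all counts that came from the 5p arm was 45.3% and 39.7% in *hrpk-1(tm5522)*, against 30.6%, 40.7% and 30.3% in *hrpk-1(zen17)*, so *hrpk-1(zen17)* replicate 2 overlapped the other allele in this measure.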

How the data were processed

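Small RNA from L4 larvae was extracted with Trizol, size selected on gels, made into libraries with the NEXTflex Small RNA-Seq Kit v3 and sequenced on an Illumina NextSeq. The values deposited by the authors are whole-number read counts for each mature strand and are not normalized. The submitters' processing notes name cutadapt 1.15 and Bowtie, and the genome build, the miRNA annotation and how multi-mapping reads were handled are not given in the sources used here. The 5 libraries alone were fitted with edgeR 4.0.16 under R 4.3.3, using TMM factors, the two-sided quasi-likelihood test and Benjamini-Hochberg adjustment. The standard error was derived from the test statistic. For guide to star ratios limma 3.58.1 was used, with a pseudocount of 0.5. Both tests were first tested on simulated data. As alternatives, RLE size factors, DESeq2 1.42.0, scaling by total counts, no filter, a minimum of 100 counts, fits over 8 or 14 libraries, a block for replicate number, leaving out each library, a pseudocount of 5 and a mean of 50 star counts were tried. Named strands were the 8 highest and 8 lowest calls that averaged 100 counts or more without overlap of the groups, the miRNAs that the study names, members of 12 lists, the 6 most abundant strands, the 4 largest ratio changes each way and arms called oppositely. Members and lists were chosen with earlier results of these data known. Mature sequences were not at hand, so a list may leave out relatives of its members. Gene positions for 206 of 215 miRNA names came from Ensembl release 115 (WBcel235), and the table itself holds no coordinates. At these depths 3 counts, the limit that a count of 0 allows, amounted to 0.162 to 0.268 ppm per library. PCR reads are not independent molecules, and such limits hold for counting error alone. Figures were drawn with matplotlib 3.10.9.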

Additional observations from a re-analysis of the deposited data

How the results depend on the processing

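The number of strands called, 88, was 95 with RLE size factors, 93 with DESeq2, 69 with total counts, 86 without a filter and 66 with a minimum of 100 counts, and it fell to 45 when the spread was estimated over the 8 L4 libraries and to 39 over all 14. With 1 library left out it lay between 60 and 111, the latter without *hrpk-1(zen17)* replicate 2. The higher calls numbered between 23 and 58 and the lower between 27 and 53 in these fits. All 45 and 39 strands called over 8 and 14 libraries were among the 88. A total of 21 strands, 6 higher and 15 lower, were called in every alternative. With the replicate number as a block, 53 strands (17 higher, 36 lower) and 21 ratios were called. Deviations of same-numbered libraries from their group means had r of -0.11 and -0.14 in 2 pairs. With 2 *hrpk-1(tm5522)* libraries the deviations of one mirror those of the other, so these are not separate checks and cannot settle whether libraries were paired. The labels give replicate numbers only, so the number is not taken to pair the samples. The 35 ratio calls numbered 32 with a pseudocount of 5, 24 among pairs with a mean of 50 star counts, and between 25 and 39 with a library left out. Among the 41 named strands that were called, 16 lost the call in the fit over 8 libraries, 16 over all 14 and 11 with the block, and none changed direction.

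Directions turned only among named strands that were not called. With a minimum of 100 counts miR-48-5p at -0.070, miR-52-5p at -0.037, miR-53-5p at -0.065, miR-56-3p at -0.065 and miR-63-3p at -0.063 fell below 0, and so did miR-63-3p at -0.089 with the block. With 1 library left out in turn, the log2 fold changes lay as follows: miR-48-5p between -0.077 and 0.30, miR-237-5p between -0.024 and 0.63, miR-37-3p between -1.32 and 0.10, miR-40-3p between -0.43 and 0.0030, miR-52-5p between -0.036 and 0.24, miR-53-5p between -0.12 and 0.27, miR-56-3p between -0.063 and 0.17, miR-63-3p between -0.13 and 0.20, miR-44-3p between -0.27 and 0.076, miR-45-3p between -0.27 and 0.077 and miR-1-3p between -0.41 and 0.044. The cause of these changes was not tested. With 2 libraries of *hrpk-1(tm5522)*, a fit without one of them assumes that the lone library varies like the other group, and small differences could not be resolved.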
